A study of Mus musculus with 12 samples.

Results

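The cytochrome P450 genes of families 1 to 4 were taken as every row whose symbol starts with Cyp, a family number from 1 to 4 and a letter, without rows named as pseudogenes (-ps). The rule gave 82 of the 55450 genes in the table, in 22 subfamilies. By annotation 81 were protein coding and 1, Cyp4x1os, was an antisense RNA. The libraries were made from total RNA of whole tissue, taken from males that were 7 to 9 weeks of age. There were 4 groups of 3 libraries: brain and liver of Vaultrc5+/+ mice (labelled wild-type, with flx in the titles) and brain and liver of Vaultrc5-/- mice (labelled knockout). Vaultrc5 encodes a small non-coding vault RNA, and the libraries compare tissue with and without it. No treatment, strain, Cre driver or pooling of animals is given in the labels. The labels do not say that each library came from a separate animal, so the p-values measure the spread between libraries, which may be technical in part.

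P450 enzymes of these families are haem monooxygenases anchored in the endoplasmic reticulum, where they take electrons from P450 oxidoreductase (Por). They oxidise drugs, pollutants, steroids, arachidonic acid and other fatty acids, and liver parenchymal cells, the hepatocytes, are their main site of expression. Many are switched on by ligand-activated receptors: the aryl hydrocarbon receptor (Ahr) for family 1, the constitutive androstane receptor (Nr1i3) and pregnane X receptor (Nr1i2) for many genes of families 2 and 3, and Ppara for the Cyp4a genes. Several mouse P450 genes also differ between the sexes. The genes lie largely in clusters of close paralogs. On chromosome 19, 14 Cyp2c members lie together and Cyp2c23 apart from them. On chromosome 5, 8 Cyp3a members lie together and Cyp3a13 apart, and the 8 Cyp2d members lie on chromosome 15.

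The targeted gene, Vaultrc5, had 33, 39 and 48 counts in wild-type liver, 4, 1 and 4 in wild-type brain and 0 in each of the 6 knockout libraries. Library totals ran from 14844971 to 18567381 counts for brain and from 23247449 to 27155480 counts for liver. The hepatocyte markers Alb, Apoa1, Ttr, Serpina1c and Tat summed to 56032 to 91880 CPM (counts scaled to a common library size, with TMM factors over all 12 libraries) in liver, and the neuronal markers Snap25, Syt1, Rbfox3 and Tubb3 to 2476 to 3314 CPM in brain. The hepatocyte sum was uneven between brain libraries, from 0.369 to 437 CPM, and Ttr was also listed as a choroid plexus marker. Liver knockout library 2 stood apart. Its hepatocyte marker sum was the lowest, 56032 against 70801 to 91880 CPM, its Kupffer cell and macrophage sum the highest, 314 against 134 to 188 CPM, and its Spp1 level the highest, 136 against 24.6 to 37.1 CPM. Spp1 was listed as a bile duct (cholangiocyte) marker, and of the other 4 markers of that list Sox9 was highest there (14.5 against 5.54 to 12.6 CPM), while Krt7, Krt19 and Epcam lay within the range of the other liver libraries. Brain knockout library 3 held exocrine pancreas transcripts, with Cela1 at 633, Cpa1 at 648 and Prss2 at 327 CPM, while the other 5 brain libraries had at most 0.725 CPM of the sum of these 3. The main counts of members called, and the spread between liver libraries, are given below also without these libraries.

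Liver held nearly all of the P450 RNA. The 82 members took 1.87% ± 0.143 (SD, n = 3) of all counts in wild-type liver and 0.0130% ± 0.000838 (SD, n = 3) in wild-type brain. Of the members, 41 had counts in liver and none in any brain library, 3 had counts in brain and none in any liver library (Cyp2j12, Cyp2j13 and Cyp3a57), and 10 had none in either tissue. Cyp2j13 and Cyp3a57 had at most 3 counts in any brain library. Some of the 41, among them Cyp2b13, Cyp2t4 and Cyp3a16, had no more than that in any liver library. A mean of at least 1 CPM was reached by 53 members in liver and 14 in brain. In bulk tissue, fewer cells of a type and less RNA per cell cannot be told apart. Close paralogs share sequence, and 44 of the members had fractional counts in at least 1 library, so a split of reads between near-identical genes adds an uncertainty that the replicate errors do not hold. The counts of Cyp1a1 with Cyp1a2, Cyp2a12 with Cyp2a22, Cyp3a25 with Cyp3a59 and Cyp4a12a with Cyp4a12b added up to whole numbers (within 0.05) in 6 of 6 liver libraries.

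**Figure D1:**
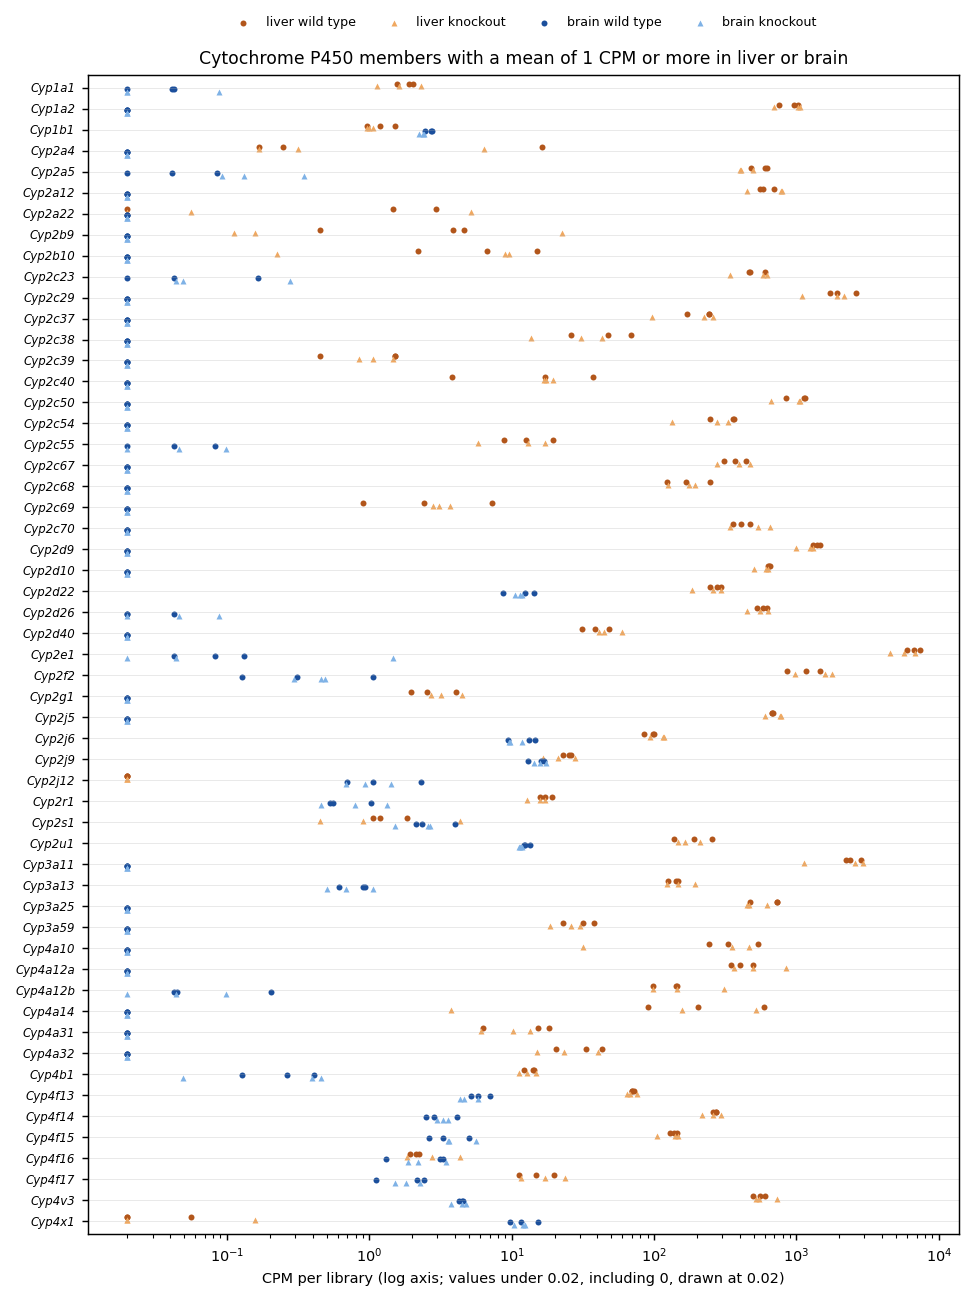
Level of each member with a mean of at least 1 CPM in liver or brain, in CPM on a log axis, with 1 point per library (circles wild type, triangles knockout, orange liver, blue brain). Most members sit to the right in liver and at or near 0 in brain, while Cyp1b1, Cyp2j12 and Cyp4x1 sit to the right in brain, and values near 0 are drawn at the left edge.

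Cyp2e1, which oxidises ethanol, acetone and other small solvents, was the most abundant member of liver. The gene lies at chr7:140763739-140774987 (GRCm38, GENCODE M21). It measured 6723, 5938 and 7354 CPM in wild-type liver and 5677, 4558 and 6829 CPM in knockout liver. Per kilobase of exon it stood at 3092 ± 329 CPM per kb (SD, n = 3) in wild-type liver, 4.52 times the next member, Cyp2c29, at 685 ± 153 CPM per kb. After these came Cyp2f2, a periportal enzyme, at 575 ± 148, the male-predominant steroid hydroxylase Cyp2d9 at 524 ± 29.6, the drug-metabolising Cyp3a11 at 487 ± 62.8 and the caffeine-oxidising Cyp1a2 at 453 ± 68.4 CPM per kb. Cyp2d10, Cyp2c50, Cyp2d26, Cyp3a25, Cyp2j5 and the coumarin hydroxylase Cyp2a5 followed, from 390 ± 8.56 down to 274 ± 36.3 CPM per kb. Only the step from Cyp2e1 to Cyp2c29 exceeded the larger SD of both neighbours in that order, and from Cyp2c29 to Cyp2a5 no neighbours differed beyond their spread. In knockout liver Cyp2e1 also led, 3.67 times above Cyp2f2, which came second there.

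The RNA was spread over few genes. Cyp2e1 alone made up 26.0% of member CPM over the 6 liver libraries, the top 3 members 43.9% and the top 10 members 71.0%. By subfamily, wild-type liver P450 counts were 26.9% ± 1.98 Cyp2e, 21.1% ± 1.71 Cyp2c, 13.3% ± 1.29 Cyp3a, 11.9% ± 0.951 Cyp2d and 5.04% ± 1.23 Cyp4a (SD, n = 3). Brain had another makeup: 30.3% ± 3.11 Cyp2j, 18.0% ± 2.39 Cyp4f, 13.3% ± 0.894 Cyp2u, 12.8% ± 3.38 Cyp4x and 12.3% ± 2.82 Cyp2d (SD, n = 3). In brain the Cyp2d counts were nearly all of Cyp2d22, and the only other Cyp2d member with a brain count was Cyp2d26.

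**Figure D2:**
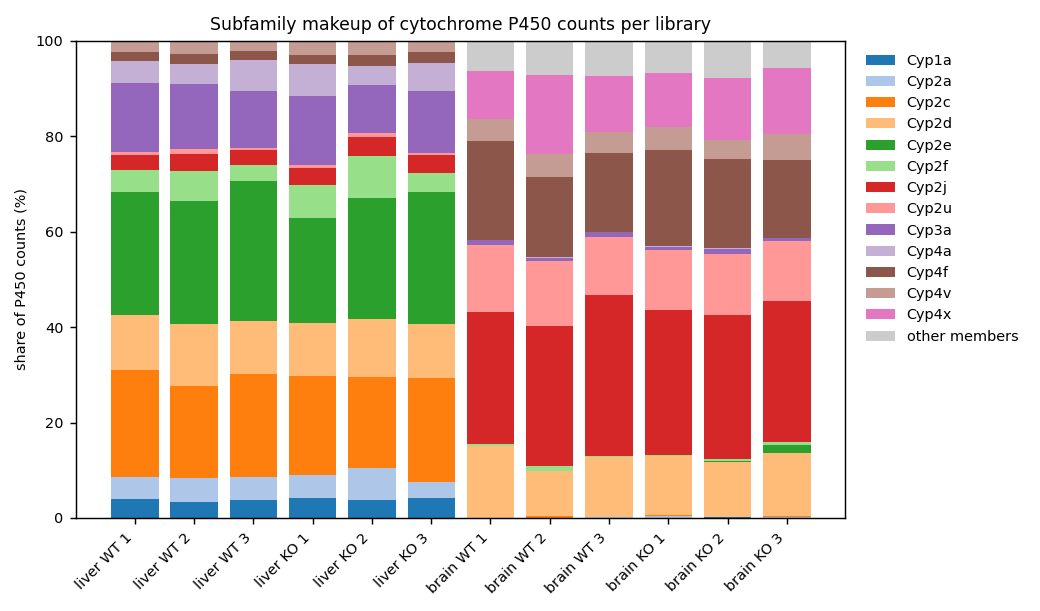
Share of P450 counts (%) taken by each subfamily in each of the 12 libraries, as stacked bars that sum to 100%, with the smaller subfamilies pooled as other members. Cyp2e, Cyp2c, Cyp3a and Cyp2d fill most of each liver bar and Cyp2j, Cyp4f, Cyp2u, Cyp4x and Cyp2d most of each brain bar, and a Cyp2e band is seen in the bar of brain knockout library 3.

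The promoter of Cyp2e1 is printed first because this gene carries most P450 RNA of any member. The 120 bases before the RefSeq transcript start (GRCm38.p6, chr7:140763699-140763818, plus strand) hold a TATAAA box, in capitals, that starts 31 bases before it.
Cyp2e1: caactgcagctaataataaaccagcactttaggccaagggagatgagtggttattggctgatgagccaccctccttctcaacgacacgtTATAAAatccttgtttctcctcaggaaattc
RefSeq gave promoter windows for 67 of the 82 members. Windows ran from 250 bases before to 50 after the start. TATAAA on the gene's own strand within 50 bases before the start was found in 12 of the 67, or 17.9%, against 2.88% of 27025 promoters. On either strand in the whole window TATAAA was found in 29 of 67 (43.3%, against 14.2% of all promoters), AGGTCA, the core of many nuclear receptor sites, in 18 (26.9% against 16.0%), GTTAAT, a part of the HNF1 site, in 9 (13.4% against 7.20%) and GCGTG, the core of the aryl hydrocarbon receptor site, in 13 (19.4% against 32.5%). No motif holds the letters of another, and a match describes the sequence and shows no binding. Near-copy promoters of paralogs, such as those of Cyp2a4 and Cyp2a5, were each counted, so the 67 windows are not independent.

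Most members were higher in liver than in brain. In wild type 51 members passed the low-count filter, and 46 were higher in liver and 4 higher in brain at an adjusted p under 0.05 (edgeR quasi-likelihood test with Benjamini-Hochberg adjustment over 18850 genes). Of all genes tested 78.6% were called, 34.7% as higher in liver and 43.9% as higher in brain, and 79.8% had an unadjusted p under 0.05. The median log2 difference (brain minus liver) was -11.69 for the members and 0.21 for all genes, but 27 of the 51 members had 0 counts in all libraries of a tissue, where a fitted value is no measured size. With these members set to the bound that a floor of 3 counts per library allows, the median of the members was -8.14. In the knockout libraries, which share no sample with the wild type, 51 members were tested and 45 were higher in liver and 3 in brain, with 78.7% of all genes called, 35.2% as higher in liver and 43.5% as higher in brain, and 80% at an unadjusted p under 0.05. Members that passed only because of their liver counts had to differ, so these counts describe the tissues and say nothing of the remaining members. With library totals in place of TMM the median of all genes moved towards brain by 0.84 in wild type and 0.88 in knockout (log2), the split of all calls in wild type became 61.7% higher in brain and 21.2% higher in liver, and the members split into 5 higher in brain and 45 higher in liver. In knockout that split was 62.1% and 20.6% of all genes, and 3 and 45 members. All 19 subfamily sums tested in wild type were called, against 78.6% of the features in that fit.

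For 29 members with no count in any wild-type brain library, liver stood at least 5.95 to 19412 times above the floor of 3 counts per brain library, with a median of 2305-fold. The highest bounds were those of Cyp3a11, at least 19412-fold, Cyp2c29, at least 16394-fold, and Cyp2d9, at least 10891-fold higher in liver. Other members had both tissues measured. Cyp4v3, a fatty acid omega-hydroxylase, had 4.46, 4.26 and 4.52 CPM in wild-type brain and 553, 606 and 492 CPM in wild-type liver, a log2 difference of -6.95 ± 0.15 (SE, adjusted p = 6.62e-08). Cyp2d22 was closer, at 14.5, 8.64 and 12.5 against 295, 248 and 276 CPM (log2 difference -4.52 ± 0.21). The levels of the 2 tissues did not overlap for either gene.

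Cyp2e1 in brain was at or below 3 counts in 5 of the 6 libraries. Brain knockout library 3, the library with pancreas transcripts, held 32 Cyp2e1 counts, or 1.47 CPM, against at most 0.133 CPM in the other brain libraries. The part of these transcripts in the Cyp2e1 count was not tested. Without that library 50 of 53 members tested were called between knockout brain and liver, against 48 of 51 with it, and 73.7% of all genes were called in that fit. Without liver knockout library 2 the count was 50 of 52, with 75.3% of all genes called.

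Members higher in brain were few. Cyp4x1, a fatty acid and endocannabinoid epoxygenase, had 9.77, 15.3 and 11.6 CPM in wild-type brain and 10.4, 12.0 and 12.4 CPM in knockout brain, with at most 3 counts in any liver library. The gene lies at chr4:115106323-115134281 (GRCm38). Its log2 difference from liver was 9.03 ± 0.52 (SE) in wild type (adjusted p = 2.04e-06) and 7.56 ± 0.56 in knockout (adjusted p = 1.03e-05), sizes that depend on the few liver counts. The antisense Cyp4x1os beside it had 5 to 10 counts in each brain library, and the genes overlap at one end, where reads of both cannot be told apart if counting did not use strand. Cyp2j12 had 1.06, 0.696 and 2.30 CPM in wild-type and 0.937, 1.41 and 0.687 CPM in knockout brain and 0 counts in all 6 liver libraries, at least 8.55-fold higher in wild-type brain than the floor of liver. Cyp1b1, which oxidises oestradiol and arachidonic acid and is a vascular member of the family, had 2.74, 2.70 and 2.47 CPM in wild-type brain and 0.955, 1.19 and 1.52 CPM in wild-type liver, a log2 difference of 1.11 ± 0.27 (adjusted p = 0.00558). All 6 brain libraries lay above all 6 liver libraries for Cyp1b1, and the difference in knockout was 1.20 ± 0.24 (adjusted p = 0.00235).

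Cyp2s1, which handles retinoids, was called in wild type and not in knockout. It had 2.12, 2.33 and 3.97 CPM in brain and 1.07, 1.19 and 1.83 CPM in liver there (log2 difference 1.04 ± 0.36, adjusted p = 0.028). The call was lost without brain wild-type library 3 (adjusted p = 0.132), without liver wild-type library 1 (0.0939) or 2 (0.0937), and with all 12 libraries in one fit (0.161). In knockout liver it had 4.31, 0.450 and 0.896 CPM, so that the groups overlapped (log2 difference 0.24 ± 0.74, adjusted p = 0.778). Without liver knockout library 1 that difference was 1.70 (adjusted p = 0.0164). Whether the tissue difference differs between genotypes was tested as the interaction for each member, and none was called. Brain wild-type library 3 was also the highest of the 6 brain libraries for Cyp2j12, at 2.30 CPM.

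The most abundant brain member was Cyp2j9, an arachidonic acid hydroxylase known from brain. It lies at chr4:96568429-96591578 (GRCm38), in a cluster with Cyp2j12 at chr4:96099318-96141152. It had 16.1, 12.9 and 16.8 CPM in wild-type brain and 25.5, 22.9 and 25.9 CPM in wild-type liver, a log2 difference of -0.69 ± 0.14 (adjusted p = 0.0021), and 17.5, 14.4 and 15.9 against 28.0, 16.5 and 21.2 CPM in knockout (-0.47 ± 0.20, adjusted p = 0.0629). With library totals its difference turned to 0.15 in wild type and 0.40 in knockout, so its order between the tissues depends on the scaling. In knockout the call was gained without liver knockout library 2 (-0.66, adjusted p = 0.0113), with the replicate block (0.0312), with all 12 libraries in one fit (0.0333) and by the DESeq2 Wald test (0.0461). Per kb of exon Cyp2j9 stood at 4.59 ± 0.624 CPM per kb in wild-type brain, followed by Cyp2j6 at 3.44 ± 0.728, Cyp2d22 at 3.03 ± 0.755, Cyp4x1 at 2.92 ± 0.670 and Cyp2u1 at 2.43 ± 0.120 CPM per kb (SD, n = 3). Cyp4f15, Cyp4f13 and Cyp4f14 lay between 1.59 and 1.31 CPM per kb. The steps from Cyp2j9 to Cyp2j6 and from Cyp2u1 to Cyp4f15 exceeded the larger SD of both neighbours, and the others did not. Cyp4f16, an omega-hydroxylase of fatty acids, was the member called in neither tissue contrast, with 1.31 to 3.28 CPM in wild-type brain and 1.94 to 2.25 CPM in wild-type liver. With library totals it was called in wild type (log2 difference 1.14, adjusted p = 0.0249).

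**Figure D3:**
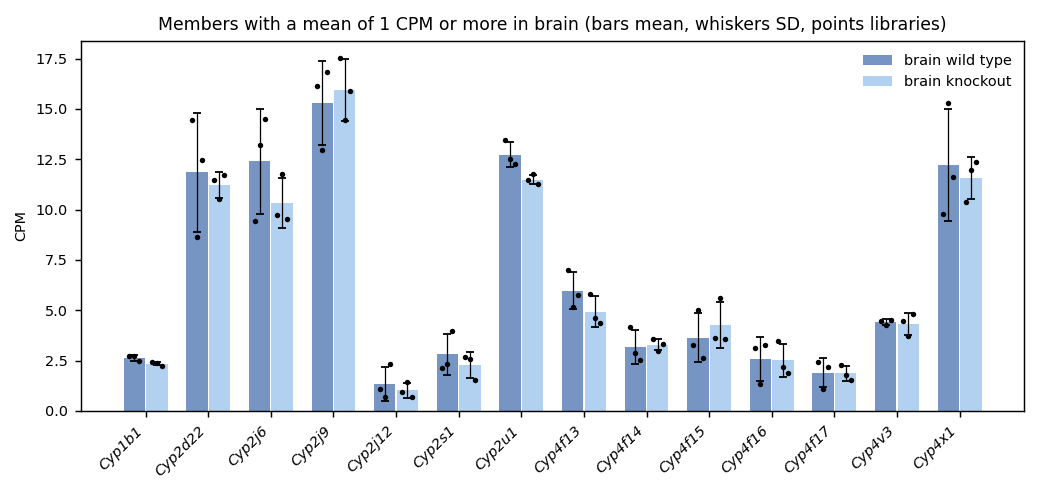
CPM of the 14 members with a mean of at least 1 CPM in brain, as bars for the mean of wild type (dark) and knockout (light), whiskers for the SD and points for the 3 libraries of each. Cyp2j9, Cyp2u1, Cyp2j6, Cyp4x1 and Cyp2d22 are the tallest, and wild-type and knockout points overlap for each gene except Cyp1b1 and Cyp2u1.

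Cyp2j12 and Cyp2j9 lie in the same Cyp2j cluster on chromosome 4 and are printed because one was counted in brain alone while the other was counted in both tissues. The windows are the 120 bases before the RefSeq starts (GRCm38.p6, chr4:96141153-96141272, minus strand and chr4:96591486-96591605, minus strand), with a GCGTG match in capitals in Cyp2j12. Neither held TATAAA here, and 41 of 120 positions were identical. In the longer windows used for the motif counts above, GCGTG was found for both genes. For Cyp2j9 it lies outside the printed bases, so this motif does not set the 2 promoters apart.
Cyp2j12: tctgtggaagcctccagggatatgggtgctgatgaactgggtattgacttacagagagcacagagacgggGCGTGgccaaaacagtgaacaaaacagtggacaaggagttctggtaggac
Cyp2j9: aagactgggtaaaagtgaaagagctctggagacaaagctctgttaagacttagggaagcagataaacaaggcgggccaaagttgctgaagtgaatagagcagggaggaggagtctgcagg

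Within liver the members varied more between libraries than most genes. The median coefficient of variation over the 6 libraries was 24.6% for the 53 members with a mean of at least 1 CPM. It was 13.1% for the 13935 genes that reached the same cutoff, which were not matched to the members in level. Of the 53 members 11 (20.8%) exceeded 50%, against 3.96% of all genes. Without liver knockout library 2 the medians were 17.3% for the members and 11.8% for all genes, and 9 members (17.0%) exceeded 50% against 3.21% of all genes. The lowest were Cyp4f13 (5.64%), Cyp2d10 (8.83%) and Cyp2j5 (9.50%). Cyp4a14, a fatty acid hydroxylase that Ppara induces, ran from 3.77 to 589 CPM, with 205, 90.5 and 589 CPM in wild type and 158, 3.77 and 519 CPM in knockout. Its neighbour Cyp4a10 had 329.7, 245 and 535 against 353, 31.8 and 462 CPM. In both genotypes library 3 was the highest and library 2 the lowest for these Cyp4a genes. Cyp2b10, the classic target of the constitutive androstane receptor, had 15.1, 2.19 and 6.70 against 9.03, 0.225 and 9.57 CPM, with the lowest value of either genotype in library 2. Cyp2b9, a gene of female mouse liver, had 3.88, 0.448 and 4.60 against 0.158, 0.112 and 22.4 CPM. Cyp2a22 had 1.46, 0 and 2.93 against 0, 0.0562 and 5.15 CPM, with library 3 the highest in both genotypes. Of the 50-base stretches in Cyp2a22 exons, 20.2% also occur in the far more abundant Cyp2a12, so some Cyp2a22 counts may belong to Cyp2a12.

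Cyp2a4 had the largest coefficient of variation (166%). It lies at chr7:26307169-26315088 (GRCm38), and Cyp2a5 at chr7:26835305-26843548. This steroid 15-alpha-hydroxylase, which is known from female liver, had 0.169, 0.249 and 16.3 CPM in wild type and 0.315, 0.169 and 6.38 CPM in knockout, so that the library numbered 3 was high in each genotype. Its near-copy Cyp2a5 was far more abundant and steadier, with 619, 482 and 604 CPM in wild type and 498, 405 and 403 CPM in knockout. The promoters are printed because the levels differ and the sequences are nearly identical. Over the 120 bases before the RefSeq starts (GRCm38.p6, chr7:26307072-26307191, plus strand and chr7:26835219-26835338, plus strand), 117 of 119 positions were identical once they were shifted by 1 base, and the TATAAA box is in capitals.
Cyp2a4: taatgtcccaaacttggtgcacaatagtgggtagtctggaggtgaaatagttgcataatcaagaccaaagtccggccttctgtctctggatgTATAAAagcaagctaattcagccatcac
Cyp2a5: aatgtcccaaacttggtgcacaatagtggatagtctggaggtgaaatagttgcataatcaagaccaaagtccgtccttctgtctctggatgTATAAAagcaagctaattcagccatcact
Of the 50-base stretches in Cyp2a4 exons, 36.1% also occur in Cyp2a5, so some Cyp2a4 counts may belong to Cyp2a5. In 4 of 6 liver libraries the counts of the pair added up to a whole number.

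Over the 53 members, the deviations of wild-type and knockout liver libraries with the same number correlated at 0.12, 0.71 and 0.65 for numbers 1, 2 and 3, as a description of genes within libraries that are not independent of each other. Over 13935 genes the same values were 0.31, 0.31 and 0.37. The library numbered 3 shared high Cyp4a14, Cyp4a10, Cyp2a4 and Cyp2e1 and low Cyp2f2, Cyp4a12a and Cyp2u1 in both genotypes. These members were picked after their values were seen, so the list gives no share of members or of all genes.

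**Figure D4:**
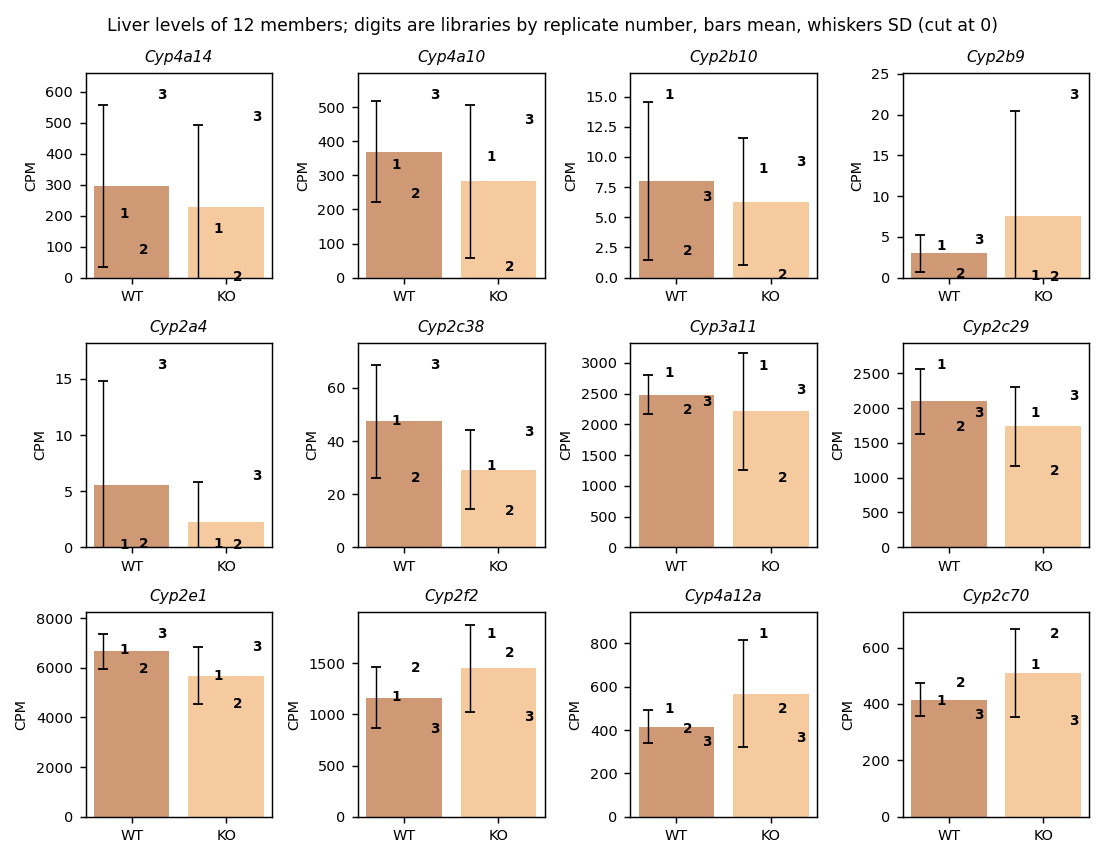
Liver CPM of 12 members, with digits 1 to 3 for the libraries of each genotype, bars for the mean and whiskers for the SD, each panel on its own axis from 0. Digits of the same number lie at like places in both bars for Cyp4a14 and Cyp4a10, digit 3 is the highest in both bars for Cyp2a4 and the lowest for Cyp2f2, and digit 2 of the knockout is the lowest for Cyp3a11, Cyp2c29 and Cyp2e1.

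Liver knockout library 2 was the lowest of the 6 liver libraries for 29 of 53 members, where it was the lowest for 25.5% of all genes. Cyp3a11 had 1129 CPM there against 2232 to 2945 CPM in the others, Cyp2c29 had 1102 against 1729 to 2624 CPM and Cyp2c54 had 133 against 248 to 366 CPM. The 9 members listed as induced through Nr1i3 and Nr1i2 summed to 3724 CPM against 5862 to 8028 CPM, and the 4 listed as induced through Ppara to 56.6 against 393 to 1175 CPM. All 4 of the latter and 7 of the former had their lowest value there, while of the others Cyp3a13 was highest there and Cyp2a5 was lowest in liver knockout library 3. The pericentral hepatocyte markers that are not members summed to 2058 CPM in that library and 1838 to 2354 CPM in the other liver libraries, and the periportal ones to 8491 against 8095 to 10754 CPM. It was the highest for 5 members: Cyp2a12, the bile acid hydroxylase Cyp2c70 at 647 CPM, Cyp2d40, Cyp3a13 at 193 CPM and Cyp4f16, where it was the highest for 20.8% of all genes. The marker sums given above moved in the same library, and their part in these levels was not tested.

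No member was called between genotypes. In liver 52 members were tested and 0 passed an adjusted p of 0.05 (edgeR), as did 0% of the 15329 genes tested, and the DESeq2 Wald test called 0 members and 10 of all genes. One member had an unadjusted p under 0.05 by either tool, against 3.5% of all genes by edgeR. It was Cyp2a5, with a log2 difference (knockout minus wild type) of -0.38 ± 0.14 (SE, adjusted p = 0.992). Its wild-type and knockout values overlapped, since 498 CPM in knockout exceeded 482 CPM in wild type. The median log2 difference was -0.12 over the members and 0.01 over all genes, with 19 members above 0 and 33 below. Without liver knockout library 2 that median was 0.04, with 32 of 54 members above 0 and 0 called, so the sign of the median rests on that library. Without it Cyp2a5 was -0.34 ± 0.15 (unadjusted p = 0.0561 in edgeR), and Cyp2j6, at 0.31 ± 0.10, had the only unadjusted p under 0.05 among the members (0.0161, adjusted p = 0.999), against 2.87% of all genes, and 0% of all genes were called.

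Cyp2d9 was the member whose knockout libraries all lay below the wild type, with 1307, 999 and 1236 against 1397, 1468 and 1311 CPM (log2 difference -0.23 ± 0.13, adjusted p = 0.992). It was -0.13 ± 0.11 without liver knockout library 2. No member had all knockout libraries above. Over all genes the shares were 5.45% below and 4.16% above. The other members with the smallest p were Cyp2j6 (0.22 ± 0.11), Cyp3a25 (-0.32 ± 0.20) and Cyp4f16 (0.50 ± 0.33), each with adjusted p = 0.992. Cyp4f16 was 0.12 ± 0.28 without liver knockout library 2. The male-predominant Cyp4a12a had 496, 402 and 345 against 842, 497 and 363 CPM (0.45 ± 0.30). Cyp2b9 had the widest error, at 1.37 ± 1.90. Per subfamily 0 of 18 sums were called in liver, against 0% of the features in that fit.

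Libraries with the same number deviated together in liver, so the fit with the number as a block bears on this comparison. It called 0 of 52 members, against 0.013% of all genes, while 7 members had an unadjusted p under 0.05, against 6.41% of all genes. The smallest was that of Cyp2c38, an arachidonic acid epoxygenase, with 47.4, 26.1 and 68.8 CPM in wild type and 30.5, 13.7 and 43.3 CPM in knockout. Its differences within the pairs were -0.64, -0.93 and -0.67, and the blocked log2 difference was -0.73 ± 0.09 (adjusted p = 0.119). Without the block it was -0.69 ± 0.54, and without the block and liver knockout library 2 it was -0.36 ± 0.48. The other 6 were Cyp2d40 (0.31 ± 0.08), Cyp3a59 (-0.29 ± 0.08), Cyp2a5 (-0.38 ± 0.11), Cyp2c54 (-0.46 ± 0.15), Cyp4a12a (0.39 ± 0.14) and Cyp2f2 (0.31 ± 0.13), with adjusted p from 0.712 to 0.775. The knockout lay below the wild type in all 3 pairs for 10 members, where 14.8% of all genes did, and above it for 4, where 14% of all genes did. Without liver knockout library 2 the blocked fit called 0 of 54 members, against 0.0128% of all genes, and 6 had an unadjusted p under 0.05, against 3.6% of all genes. Of the 7 above, 4 were among these 6 (Cyp2a5, Cyp2c38, Cyp2d40 and Cyp3a59). Cyp2c54 (-0.26 ± 0.13), Cyp4a12a (0.41 ± 0.18) and Cyp2f2 (0.39 ± 0.16) were not, and Cyp2a4 and Cyp2j6 were added. Cyp2c38 was then -0.66 ± 0.10 (adjusted p = 0.469 in edgeR). In pairs 1 and 3 alone the knockout lay below the wild type in both for 12 members, where 23.8% of all genes did, and above it for 13, where 25.4% of all genes did.

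**Figure D5:**
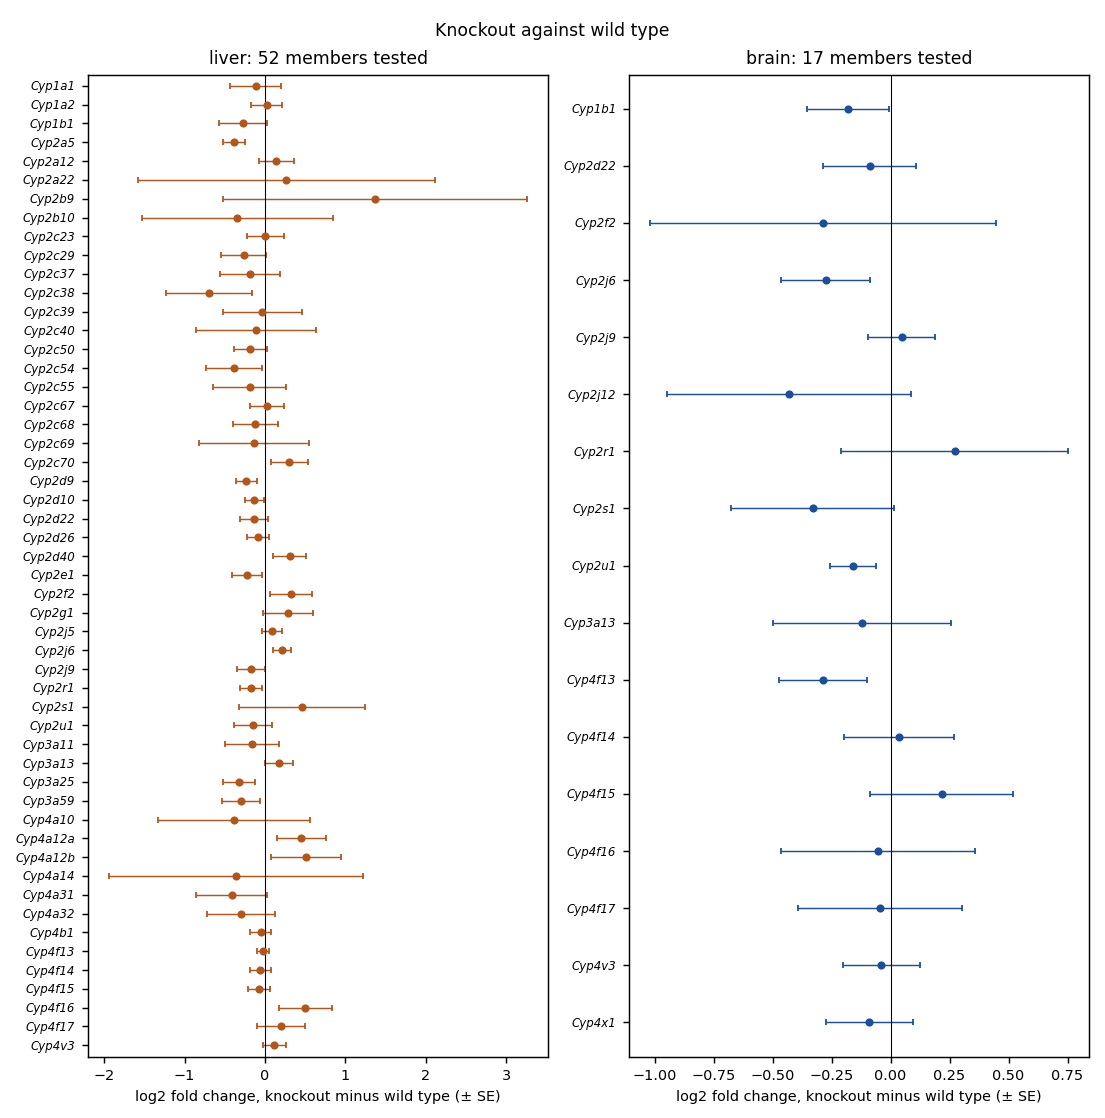
Log2 difference of knockout minus wild type with its SE for each member tested, 52 in liver (left) and 17 in brain (right), in order of subfamily. Points scatter on both sides of 0 and no member passed an adjusted p of 0.05, and the longest bars are those of Cyp2b9, Cyp2a22, Cyp4a14 and Cyp2b10.

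In brain 17 members were tested and 0 were called, as were 0% of 18075 genes (edgeR; DESeq2 also called 0). None had an unadjusted p under 0.05 by either tool, against 0.675% of all genes by edgeR. The median log2 difference was -0.09 against -0.01 over all genes, with 4 members above 0 and 13 below. Cyp2u1, a fatty acid hydroxylase of brain, had 13.4, 12.5 and 12.2 CPM in wild type and 11.4, 11.8 and 11.3 CPM in knockout (-0.16 ± 0.10, adjusted p = 1). Cyp1b1 had 2.74, 2.70 and 2.47 against 2.42, 2.38 and 2.25 CPM (-0.18 ± 0.17, adjusted p = 1). These 2 of 17 members had all knockout libraries below the wild type, which 2.14% of all genes did, while no member had them above, against 2.09% of all genes. The other members among the 5 with the smallest p were Cyp4f13 (-0.29 ± 0.19), Cyp2j6 (-0.28 ± 0.19) and Cyp2s1 (-0.33 ± 0.34). Without the library with pancreas transcripts 0 members were called, as were 0% of all genes. None of 11 subfamily sums was called, as was 0% of the features in that fit. Brain libraries numbered 1 and 2 also deviated together between genotypes, while those numbered 3 did not. With the number as a block, the fit of single genes called 0 of the 17 members and 0% of all genes. No member fell below 0.05 before adjustment, where 2.25% of all genes did. The smallest p was that of Cyp4f13 (-0.29 ± 0.14, unadjusted p = 0.0813 in edgeR).

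The knockout effect was not shown to differ between the tissues. Of 55 members 0 were called in the interaction, as were 0% of 20141 genes (edgeR; DESeq2 called 0 members and 1 gene). Cyp2a5 alone had an unadjusted p under 0.05 in that fit, against 2.43% of all genes (liver effect minus brain effect -2.37 ± 0.75, adjusted p = 1), and by DESeq2 2 members had, Cyp2a5 and Cyp2e1, against 2.47% of all genes by that tool. The brain side of Cyp2a5 rested on 0 to 0.345 CPM, and that of Cyp2e1 on the counts of brain knockout library 3 given above.

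Most partners of the P450 enzymes were also higher in liver, in numbers that depend on the scaling. With TMM, all 19 genes of electron supply and haem metabolism, among them the haem oxygenases Hmox1 and Hmox2, were higher in liver in wild type, where 34.7% of all genes were, with a median log2 difference of -2.85. In knockout all 19 were again, against 35.2% of all genes, and all 19 were also without brain knockout library 3 (33% of all genes) and without liver knockout library 2 (33.3%). With library totals 15 of the 19 were higher in liver in wild type and 14 in knockout, against 21.2% and 20.6% of all genes. Hmox2 (log2 difference 0.37) and Pgrmc2 (0.44) were then higher in brain in wild type, and Pgrmc2 (0.40) in knockout. Por, the reductase that feeds electrons to these enzymes, had 32.0, 39.0 and 38.0 CPM in wild-type brain and 186, 201 and 413 CPM in wild-type liver (-2.87 ± 0.32, adjusted p = 8.50e-05), and 155, 247 and 335 CPM in knockout liver. Of 33 regulators, 32 were tested in wild type, and 22 were higher in liver and 6 in brain, against 34.7% and 43.9% of all genes. With library totals these counts were 17 and 9, against 21.2% and 61.7% of all genes. Ahr had 67.7, 65.0 and 98.0 CPM in wild-type and 53.6, 72.8 and 75.0 CPM in knockout liver. Nr1i2 had 57.3, 64.1 and 84.1 against 58.9, 52.2 and 86.2 CPM, and Nr1i3 had 149.7, 194 and 369 against 148, 122 and 206 CPM. Ppara had 154, 234 and 258 against 161, 159 and 194 CPM. In liver knockout library 2, where the sums of the members listed as induced through Nr1i3, Nr1i2 and Ppara were lowest, Nr1i2 and Nr1i3 also had their lowest value, while Ppara lay within the range of the others. None of the 19 or of the 32 regulators tested was called between genotypes in liver, as was 0% of all genes.

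Of the 18 P450 genes of higher families, which make bile acids, steroids and retinoid products, 11 were tested between the tissues in wild type, with 8 higher in liver (34.7% of all genes) and 2 in brain (43.9% of all genes), and none of 10 was called between genotypes in liver, as was 0% of all genes. With library totals 7 were higher in liver and 3 in brain in wild type, against 21.2% and 61.7% of all genes. Lists of members by sex and inducer were also summed per liver library. All 3 male-predominant members (Cyp2d9, Cyp4a12a and Cyp4a12b) summed to 1754 to 2038 CPM in wild-type and 1640 to 2459 CPM in knockout liver. The 12 female-predominant members summed to 114 to 663 and 28.6 to 579 CPM. Most of this was Cyp4a14 except in liver knockout library 2, where Cyp2c40 gave 19.5 CPM. The 3 members induced through Ahr, Cyp1a1, Cyp1a2 and Cyp1b1, summed to 762 to 1027 and 694 to 1062 CPM. The groups overlapped for all of these sums.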

How the data were processed

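The authors deposited a table of expected counts for each gene, which are not normalized. Cutadapt, STAR and mm10 are named in the submitters' processing notes without a role, and the counter, its use of strand and the annotation are not given in the sources used here. All 55450 gene IDs matched GENCODE M21 (GRCm38), which gave positions and exon lengths. Expected counts were rounded to whole numbers. Between 5.06% and 5.71% of values per library were fractional. Members were fitted within the whole table with the edgeR 4.0.16 quasi-likelihood test (R 4.3.3, TMM, robust, filterByExpr with minimum count 10 and minimum total 15) and Benjamini-Hochberg adjustment over all genes at 0.05. SE is the absolute log2 difference divided by the root of F. Tissue contrasts used the 6 libraries of a genotype, genotype contrasts the 6 of a tissue, and the interaction all 12. CPM use 1 TMM scale over 12 libraries. The floor was 3 counts per library and covers counting error only. Subfamily sums leave out Cyp4x1os.

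Members, lists and markers were chosen with earlier results of these data known. The rule for named members took the 12 highest per kb in wild-type liver, the 8 highest in wild-type brain, those higher in brain, the 5 smallest p per tissue, the 3 most variable in liver and those whose tissue call differed, beside Por, Ahr, Nr1i2, Nr1i3, Ppara and Vaultrc5. Other members are named after their values were seen. Alternatives were DESeq2 size factors or library totals, the DESeq2 1.42.0 Wald test, no filter, a mean of 1 CPM, all libraries in one fit, robust off, a replicate block and each library left out. The titles number the libraries of every group from 1 to 3. Same-numbered liver libraries deviated together (correlations 0.31, 0.31 and 0.37). In brain the values were 0.65, 0.63 and -0.01, so the libraries numbered 1 and 2 also deviated together there and those numbered 3 did not. The fits were tested on simulated counts with 200 changed genes, and the outcome of that test is not given here. Marker lists without a value in the text were computed and are left out for length, except 1 whose result is not reported here. Liver spread, pairs and the blocked liver fit without liver knockout library 2 were added after the data were seen.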

Additional observations from a re-analysis of the deposited data

Results flagged for a closer look

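Reads were also counted in the 29 rows named as P450 pseudogenes, which the member rule leaves out. These rows together held 2731 counts in the lowest and 4161 in the highest liver library, and 11 of them had a count in liver. In brain 2 of them had a count. Most liver counts were in Cyp2d37-ps, with 2072, 2562 and 2734 counts in wild type and 1821, 1733 and 2495 in knockout, and in Cyp2d38-ps. Whether these reads belong to the Cyp2d members was not tested.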

How the results depend on the processing

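Counts of members called between tissues ran from 50 to 56 in wild type and from 46 to 52 in knockout over 14 alternatives each, where 53.4% to 82.9% and 53.3% to 82.7% of all genes were called, and subfamily counts in wild type from 18 to 19. The genotype counts were 0 under each of 14 alternatives, and under the block without liver knockout library 2, chosen after seeing the data, and the interaction count under each of 19. Over these, 0% to 0.0652% of all genes were called in liver, 0% in brain and 0% to 0.00993% in the interaction. The replicate block called 50 members in wild type and 49 in knockout between tissues, with 76.9% and 76.6% of all genes called, and 0 between genotypes. Of the named members' calls it changed that of Cyp2j9 in knockout alone. With the 10 most abundant genes taken out of the total, the P450 share was 2.33% and 2.10% in wild-type and knockout liver and 0.0146% and 0.0136% in brain. Signs of values that passed no genotype test turned: Cyp1a2 in liver was -0.012 with library totals, and Cyp2a22 and Cyp2b9 were -0.50 and -0.060 with the replicate block. With library totals the tissue difference was 0.15 (wild type) and 0.40 (knockout) for Cyp2j9 and 0.63 (knockout) for Cyp4f16. Leaving out 1 library at a time, the log2 difference of genotypes in liver ran from -0.10 to 0.19 for Cyp1a2, -5.44 to 1.29 for Cyp2a22, -4.39 to 1.95 for Cyp2b9, -0.31 to 0.0025 for Cyp2c50, -0.30 to 0.033 for Cyp2d22, -0.18 to 0.024 for Cyp2d26, -0.99 to 0.92 for Cyp2s1, -0.35 to 0.092 for Cyp2u1, -0.40 to 0.15 for Cyp3a11, -0.074 to 0.020 for Cyp4f13, -0.18 to 0.046 for Cyp4f14 and -0.18 to 0.056 for Cyp4f15. In brain it ran from -0.27 to 0.073 for Cyp2d22, -0.73 to 0.90 for Cyp2f2, -0.74 to 0.20 for Cyp2j12, -0.058 to 0.13 for Cyp2j9, -0.50 to 0.014 for Cyp2s1, -0.10 to 0.27 for Cyp4f14, -0.020 to 0.52 for Cyp4f15, -0.37 to 0.17 for Cyp4f16 and -0.23 to 0.11 for Cyp4x1. In the knockout tissue contrast it ran from -0.25 to 1.70 for Cyp2s1 and -0.54 to 0.095 for Cyp4f16. The causes were not tested. With 3 libraries a group, an uncalled member may still differ: the median SE over members in liver was 0.25.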
